A study of Mus musculus with 4 samples.

Results

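STAR proteins (signal transduction and activation of RNA) bind RNA through a single KH domain with conserved flanking stretches. The 5 genes taken here were chosen by symbol, as the STAR genes of the mouse: *Qk*, *Khdrbs1*, *Khdrbs2*, *Khdrbs3* and *Sf1*. They were 5 of the 23038 genes in the expression tables, and 13 of the 38240 listed splicing events lay in them. All 5 had tags in every sample. The question was whether the relatives of *Qk* changed when exon 2 of *Qk* was lost. Poly(A) mRNA was sequenced from E14.5 mouse cortices of littermates, 2 of them controls and 2 *Qk* cKO. Every embryo was *Qk* fl/fl by the study's account, although the labels call the controls wild type. The cKO embryos (QkcKO) also carried *Nestin*-cre, a transgene in which a *Nestin* promoter drives Cre in neural progenitors, so that cells outside the neural lineage keep the exon. The samples are described as independent replicates with no further detail on the embryos, so edgeR p-values measure the spread between these 4 samples, and those of Fisher's exact test, on tags summed over replicates, measure counting error only.

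Quaking, the product of *Qk*, binds ACUAAC-like elements in pre-mRNA and mRNA. Splicing after exon 6 gives it alternative C-terminal tails: Qki-5 is nuclear and acts on splicing, while Qki-6 and Qki-7 are found largely or partly in the cytoplasm and act on mRNA stability and translation. In the embryonic brain, Quaking is found in neural progenitors, and it is switched off in most neurons. *Khdrbs1* (Sam68), *Khdrbs2* (SLM1) and *Khdrbs3* (SLM2, T-STAR) encode nuclear splicing regulators that bind U(A/U)AA elements, with *Khdrbs2* and *Khdrbs3* found mainly in neurons. *Sf1* encodes splicing factor 1, which binds the intron branch point early in spliceosome assembly, at an element that resembles the one bound by Quaking.

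The sequences that bear on *Qk* are those of the floxed exon and of the 3 alternative ends. They were read from GENCODE M21 transcripts on GRCm38, the build also called mm10. *Qk* (gene 19317) lies on the minus strand at chr17:10202601-10319854. Exon 2 is an internal coding exon of 143 nt at chr17:10282839-10282981, made of 47 whole codons and 2 further bases.
Qk exon 2: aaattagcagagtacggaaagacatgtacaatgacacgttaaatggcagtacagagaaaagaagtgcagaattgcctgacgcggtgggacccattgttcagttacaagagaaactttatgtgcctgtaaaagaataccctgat
Because the length of exon 2 is not a multiple of 3, joining exon 1 straight to exon 3 shifts the reading frame. In the sequence below, the last 12 bases of exon 1 are followed by the first 5 of exon 3, and the capitals mark the stop codon that this join would create, after 48 codons in place of the 341 of Qki-5. Whether this join was made in the cKO was not analysed here.
Qk exon 1 joined to exon 3: tgctggacgaagttTAA
The 3 tails are the coding bases that follow exon 6, with the stop codon in capitals. The Qki-5 tail runs over exons 7 and 8, between chr17:10209618 and chr17:10213433. The Qki-6 tail (chr17:10214169-10214194) and the Qki-7 tail (chr17:10215431-10215474) each open a terminal exon of their own, and the acceptor of the Qki-7 exon lies 1280 nt upstream of that of the Qki-6 exon.
Qki-5 tail: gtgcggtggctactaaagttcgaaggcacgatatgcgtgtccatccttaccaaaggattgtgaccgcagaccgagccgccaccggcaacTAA
Qki-6 tail: gtatggctttcccaacgaaaggcTAA
Qki-7 tail: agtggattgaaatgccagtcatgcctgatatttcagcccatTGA
These encode proteins of 341, 319 and 325 amino acids.

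Between 37942046 and 42994832 tags per sample were assigned to genes. Summed RPKM (reads per kilobase of exon, scaled to the size of the library) of the marker lists was 1633 and 1512 in the controls against 1329 and 1267 in the cKO for 8 radial glia genes, of which 2 fell by edgeR (*Fabp7* and *Slc1a3*; 0.377% of all tested genes were called as lower) and 1 by DESeq2 (*Fabp7*). *Fabp7* made up nearly all of that difference: the other 7 genes summed to 644 and 612 in the controls and 627 and 600 in the cKO. Most of the latter sum was *Vim*, at 481 and 449 RPKM in the controls and 469 and 444 RPKM in the cKO, so it says little about the rest. Of the 8 genes, 3 had an unadjusted p below 0.05 by edgeR, 0 of them as higher, and the log2 changes ran from -0.45 to 0.082. For 6 genes of the diencephalon and hypothalamus it was 8.79 and 13.8 against 6.58 and 6.83, and 5 of the 6 fell by edgeR and 0 by DESeq2. Those 5 were at 3.32 RPKM or less in every sample. Each was higher in control 2 than in control 1, as *Six6* at 0.899 against 0.226 RPKM. By default DESeq2 can leave genes with low counts without an FDR, and these were counted as not called. Whether that held for the 5 genes was not examined. The 5 genes and *Fabp7* are in the study's own list of changed transcripts from these samples, so their calls are not independent support. The other gene, *Nkx2-1*, made up the larger part of the sum, with 6.79 and 7.26 RPKM in the controls and 5.94 and 6.31 RPKM in the cKO. Lists for intermediate progenitors, neurons, subpallium, endothelium, red blood cells, microglia and mesenchyme had 0 genes called by edgeR or DESeq2, with 0, 1, 2, 0, 1, 0 and 3 genes at an unadjusted p below 0.05. No listed marker was at 0 in every sample. For cells outside the neural lineage, summed RPKM was 58.7, 55.0, 53.0 and 63.1 (endothelium), 16.5, 17.5, 16.0 and 17.1 (microglia), 127, 116, 116 and 155 (mesenchyme and meninges), and 260, 229, 350 and 251 (red blood cells) in control 1, control 2, QkcKO 1 and QkcKO 2.

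Tags on the junction of exon 2 with exon 3, which the deleted allele cannot give, were first counted to check the labels. There were 635 and 565 such tags in the controls and 63 and 68 in the cKO. Neither cKO sample came near the controls, and both retained some exon 2. The next junction, exon 3 to exon 4, had 574 and 439 tags in the controls and 898 and 830 in the cKO. Relative to exon 3-4, the exon 2-3 junction in the cKO was at 6.40% of its control level (Fisher's exact test on summed tags, two-sided, p = 4.80e-251). With replicate variation in the model the difference was a log2 value of -3.97 (SE 0.17, edgeR interaction test, FDR 5.37e-05). This edgeR test was added after the data had been seen. Its FDR, like those of the Qki-6 and Qki-7 junctions below, was adjusted together with the acceptor events. Relative to all tags of the library the junction was at 10.3% of control, since the exon 3-4 junction was more abundant in the cKO. In whole cortex, fewer cells with the intact exon and less of it per cell cannot be told apart, and the part of the cells outside the neural lineage, whose markers are given above, in the remaining exon 2 tags was not tested.

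Outside exon 2, *Qk* mRNA was higher in the cKO. *Qk* stood at 21.1 and 21.7 RPKM in the controls and 32.5 and 34.2 RPKM in the cKO. The groups did not overlap, a separation seen upward in 16.3% of all tested genes, and samples of a group were close to each other. The change was 1.57-fold (log2 0.65, SE 0.06, 95% interval 0.52 to 0.79, edgeR quasi-likelihood test, FDR 2.50e-05). *Qk* was 1 of 5 STAR transcripts called at p below 0.01 and FDR below 0.1, and 0.584% of the 18834 genes tested were called by that rule (0.207% as higher). *Qk* is also in the study's own list of changed transcripts from these samples, so its call is not independent support. Log2 values in that list carry the opposite sign to those given here, for *Qk* as for *Fabp7*. The exon 3-4 and exon 5-6 junctions differed by about as much. As CPM (tags on the junction scaled by the tags assigned to genes), exon 3-4 had 13.9 and 11.6 in the controls and 20.9 and 20.2 in the cKO. Exon 5-6 had 10.5 and 11.9 CPM in the controls and 18.2 and 19.5 CPM in the cKO. The group means differed by 1.62-fold and 1.68-fold, and neither junction overlapped between groups. The call of *Qk* was lost without control replicate 2, at a log2 change of 0.66 and an FDR of 0.341, and 0 genes of any kind were called in that fit.

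**Figure D1:**
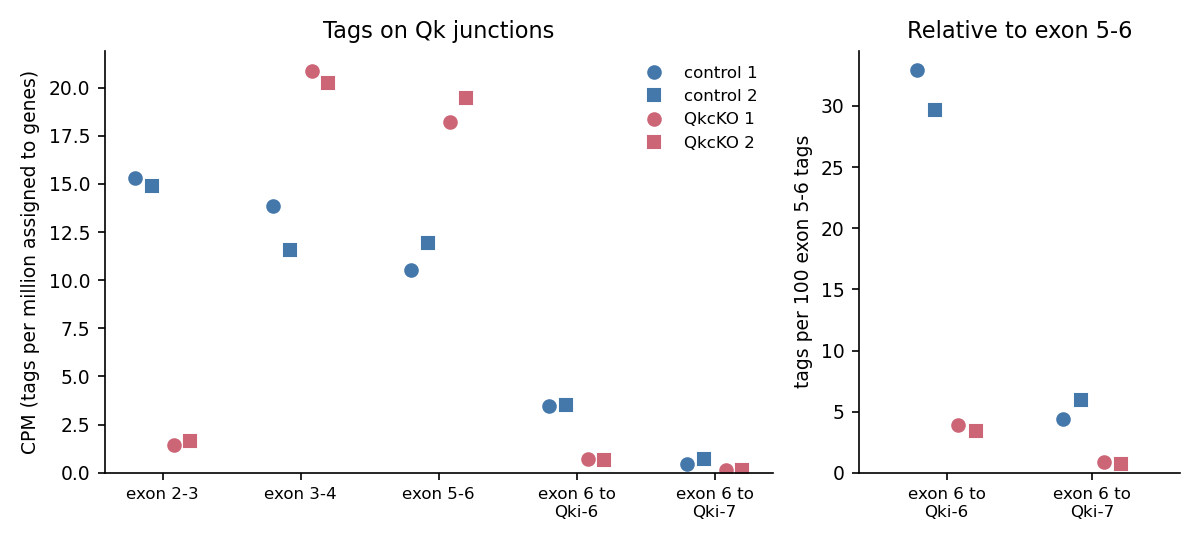
Tags on junctions of *Qk* in each of the 4 samples, as CPM, scaled by the tags assigned to genes (left, vertical axis from 0), and per 100 tags of the exon 5-6 junction (right). Exon 2-3 lay at 15.3 and 14.9 CPM in the controls and at 1.47 and 1.66 CPM in the cKO, exon 3-4 and exon 5-6 were higher in the cKO, and the junctions with the Qki-6 and Qki-7 exons were lower.

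The junctions of *Qk* exon 6 with the Qki-6 and Qki-7 exons went the other way from the exon 3-4 and exon 5-6 junctions. This measure was chosen after the data had been seen. Exon 6 was joined to the Qki-6 exon by 144 and 134 tags in the controls and by 30.6 and 27.1 in the cKO (tags shared between alternatives are split, so counts need not be whole). That was 3.47 and 3.53 CPM in the controls and 0.711 and 0.660 CPM in the cKO, although more *Qk* mRNA was present. Per 100 tags of the upstream exon 5-6 junction, the Qki-6 junction had 32.9 and 29.6 in the controls and 3.90 and 3.39 in the cKO. The groups were far apart, and the ratio in the cKO was 11.7% of that in the controls (Fisher's exact test, p = 2.97e-61). The edgeR interaction test gave log2 -3.09 (SE 0.21, FDR 5.44e-04). The Qki-7 junction was rarer, with 19.2 and 27.0 tags in the controls and 6.70 and 5.96 in the cKO. Per 100 exon 5-6 tags it had 4.39 and 5.97 in the controls and 0.855 and 0.746 in the cKO. It too was lower in both cKO samples, at 15.4% of control (Fisher's exact test, p = 1.31e-10), with log2 -2.63 (SE 0.39, FDR 0.0568) by edgeR. Both ends together were at 37.3 and 35.6 per 100 exon 5-6 tags in the controls and 4.76 and 4.14 in the cKO, which is 12.2% of control. The junction from exon 6 to exon 7, which leads to the Qki-5 end, was not analysed here, so the share of Qki-5 was not measured. The part in this shift of the cell types whose markers are given above was not tested.

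The study's event list pairs the 2 ends as competing acceptors, with the Qki-7 exon as the longer form. This was the 1 event called among the 8 tested events of STAR genes, where 7.50% of all 11500 tested events were called (7.85% of acceptor events). The longer form held 49.2% and 46.2% of the isoform tags in the controls and 84.1% and 87.6% in the cKO (Fisher's exact test, p = 6.02e-36, FDR 3.98e-33). By the edgeR interaction test, which called 0.557% of all events, it was also called, with FDR 0.0164 (0.151% of acceptor events). Most tags of the longer form, however, lay in the 1280 nt between the acceptors and not on its junction. That stretch, which is intronic for the Qki-5 and Qki-6 forms, had 139 and 115 tags in the controls, junction tags included, and 162 and 192 in the cKO. Per 100 exon 5-6 tags it had 31.9 and 25.4 in the controls and 20.7 and 24.0 in the cKO. These values include the Qki-7 junction tags, at 4.39 and 5.97 per 100 in the controls and 0.855 and 0.746 in the cKO. With the junction tags left out the groups overlap, so a fall of the stretch itself was not seen. On junction tags alone the inclusion level of the Qki-7 end was 0.118 and 0.168 in the controls and 0.180 and 0.180 in the cKO, a ΔI (control minus cKO) of -0.04, with p = 0.363 by Fisher's exact test. That ΔI was -0.012 without control replicate 1 and -0.062 without control replicate 2. The call therefore rests on tags inside the stretch, and on junction tags a change in the ratio between the ends was not detectable at this depth.

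The acceptor of *Qk* exon 6 was the other tested event of the gene. The longer form adds 24 nt in frame to the start of the exon, shown in capitals at chr17:10216412-10216459.
Qk exon 6 start: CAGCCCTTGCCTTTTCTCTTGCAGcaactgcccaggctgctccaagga
The longer form had inclusion levels of 0.871 and 0.885 in the controls and 0.905 and 0.900 in the cKO. Both cKO samples were above both controls, and 37.9% of all tested events had groups that did not overlap, in either direction. ΔI was -0.02 (Fisher's exact test, p = 0.0426, FDR 0.278), short of the threshold. The junction of exon 2 with exon 4, which skips exon 3, had 0 tags in both controls, where 968 and 827 tags supported the exon. It also had 0 in the cKO, but the deleted allele cannot give it, so skipping of exon 3 was not measured there. An inner acceptor of exon 4, at 81 nt, had 0.619 to 3.71 tags per sample and was too sparse to test.

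*Khdrbs1*, *Khdrbs2* and *Khdrbs3*, the Sam68 family, had 0 of 3 transcripts called. *Khdrbs1* (chr4:129703164-129742303) was the most abundant STAR transcript, with 96.8 and 90.5 RPKM in the controls and 92.0 and 91.8 RPKM in the cKO. The cKO values lay between the controls, and the log2 change was -0.01 (SE 0.08, 95% interval -0.17 to 0.14, edgeR, FDR 0.977). *Khdrbs3* (chr15:68928420-69101211) had 70.7 and 63.9 RPKM in the controls and 65.6 and 62.9 RPKM in the cKO. These groups overlapped, with a log2 change of -0.05 (SE 0.06, 95% interval -0.18 to 0.08, FDR 0.872). *Khdrbs2* (chr1:32172714-32658568) was the scarcest, with 2.75 and 2.86 RPKM in the controls and 3.05 and 3.05 RPKM in the cKO. Both cKO values were above both controls, a separation seen upward in 16.3% of all tested genes. Its log2 change was 0.14 (SE 0.11, 95% interval -0.09 to 0.36, FDR 0.805). The upper limit of that interval is a 1.29-fold rise, so a rise of the size seen for *Qk* lies outside the intervals of all 3 genes. Their summed level was 170 and 157 RPKM in the controls and 161 and 158 RPKM in the cKO.

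*Sf1* (chr19:6363690-6378030) had 67.6 and 68.8 RPKM in the controls and 66.4 and 68.0 RPKM in the cKO. The groups overlapped, and the log2 change was -0.01 (SE 0.07, 95% interval -0.15 to 0.13, edgeR, FDR 0.988). Among the 4 genes other than *Qk*, 0 had an unadjusted p below 0.05 in edgeR and 0 were called by DESeq2. The median log2 change of the 5 members was -0.01, beside -0.0025 for all genes tested.

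**Figure D2:**
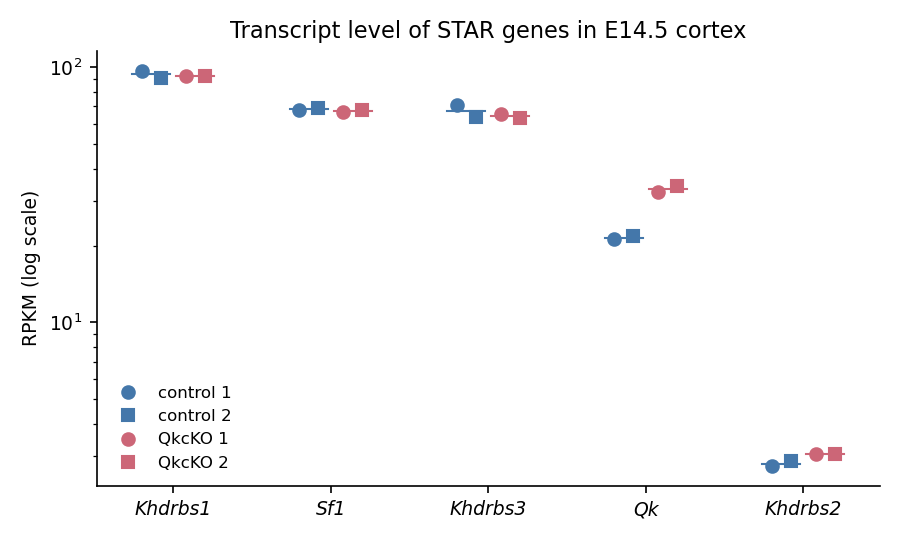
RPKM of the 5 STAR genes in each sample, on a log axis, with a short line at each group's mean. *Qk* has the widest gap between groups, at 21.1 and 21.7 against 32.5 and 34.2; those of *Khdrbs2* are also apart, at 2.75 and 2.86 against 3.05 and 3.05, and those of the other 3 genes overlap.

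**Figure D3:**
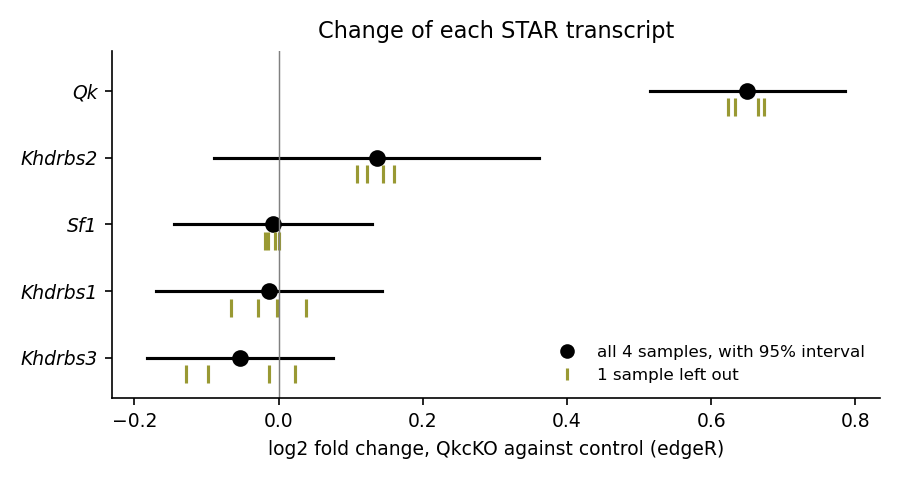
Log2 fold change of each STAR transcript in the cKO against control from the edgeR fit, with its 95% interval (horizontal bars) and the 4 values with 1 sample left out (ticks). The interval of *Qk* runs from 0.52 to 0.79, and those of the other 4 genes include 0.

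The order of the levels was the same in both groups: *Khdrbs1*, then *Sf1* and *Khdrbs3*, then *Qk*, then *Khdrbs2*. *Sf1* and *Khdrbs3* did not differ beyond the spread of the controls, where 67.6 and 68.8 lie within 63.9 to 70.7, and in the cKO 66.4 and 68.0 lay just above 65.6 and 62.9. All other neighbours were separated in every sample. RPKM corrects for exon length, which was 9.88 kb for *Qk* and 4.52, 8.96, 3.16 and 4.29 kb for *Khdrbs1*, *Khdrbs2*, *Khdrbs3* and *Sf1*. Of the summed RPKM of the 5 genes, *Qk* made up 8.16% and 8.76% in the controls and 12.5% and 13.1% in the cKO. The genes whose levels over the 4 samples were most like those of *Qk*, among 12742 genes with a mean of at least 1 RPKM, were *Trim12c*, *Arhgap11a* and *2400009B08Rik*. Their root mean square differences from the centred log2 CPM of *Qk* were 0.0507, 0.0555 and 0.0611, over 4 samples only. By edgeR their log2 changes were 0.59 (FDR 0.220), 0.59 (FDR 3.92e-05) and 0.72 (FDR 0.720). Only *Arhgap11a* was called, and it is also in the study's own list of changed transcripts from these samples.

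No splicing event was listed for *Khdrbs1*, *Khdrbs2* or *Khdrbs3*, as was the case for 32.6% of genes with a mean of at least 1 RPKM, so their splicing could not be examined. *Sf1* had 9 listed events, of which 6 were tested and 0 called by Fisher's exact test, with 0 at an unadjusted p below 0.05 and 0 called by edgeR. The largest change was at the acceptor of the terminal exon, which is listed as a pair of events with identical tags. The longer form starts 638 nt upstream of the shorter one, at chr19:6375658. It had inclusion levels of 0.545 and 0.518 in the controls and 0.473 and 0.412 in the cKO. Both cKO samples were below both controls, with a ΔI of 0.09 (Fisher's exact test, p = 0.0522, FDR 0.311). Groups that did not overlap, in either direction, were seen in 37.9% of all tested events. Without QkcKO replicate 2 the ΔI was 0.059 (p = 0.561 by Fisher's exact test), and without QkcKO replicate 1 it was 0.12 (p = 0.0104, FDR 0.130). On junction tags alone p was 0.0182 and the FDR 0.194. By isoform tags the longer form held 87.8% and 88.0% in the controls and 86.9% and 83.7% in the cKO.

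The next events of *Sf1* by size of ΔI were small shifts of splice sites that alter the reading frame. An inner donor of exon 10 leaves out the last 4 bases of the longer form (chr19:6374260-6374287), and an inner acceptor of exon 11 leaves out its first 5 (chr19:6374549-6374578), both in capitals.
Sf1 exon 10 end: ggcaccatggccctcctccaatggGTAA
Sf1 exon 11 start: ATCAGtacctgggaagtacgcctgtgggct
The longer form of exon 10 had inclusion levels of 0.0814 and 0.0925 in the controls and 0.0903 and 0.104 in the cKO, which overlapped (ΔI -0.01, Fisher's exact test, FDR 1.0). The longer form of exon 11 had 0.903 and 0.953 in the controls and 0.919 and 0.909 in the cKO, which also overlapped (ΔI 0.01, FDR 0.850). The remaining tested events of *Sf1*, the exon 3 cassette and the acceptor of exon 10, had a ΔI of 0.0097 and 0.0039. The 3 listings of the exon 12 acceptor were too sparse to test.

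**Figure D4:**
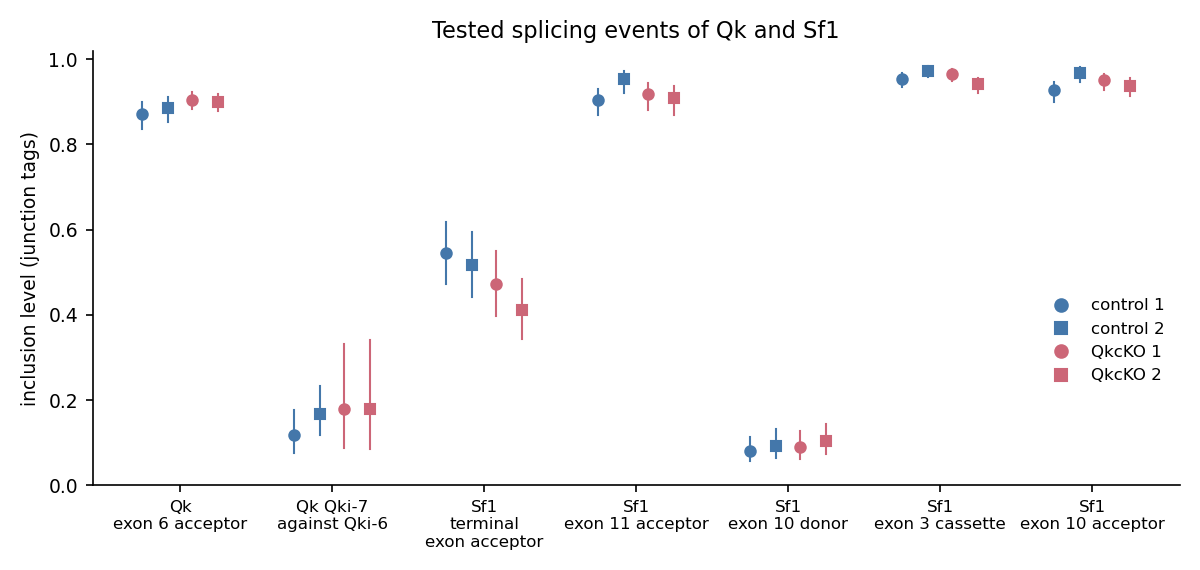
Inclusion level of the longer form, or of the cassette exon, from junction tags for the tested events of *Qk* and *Sf1* in each sample, with 95% Wilson intervals, which cover counting error only. Inclusion of the Qki-7 end ranged from 0.118 to 0.180 with wide intervals in the cKO, and that of the longer terminal exon of *Sf1* was 0.545 and 0.518 in the controls and 0.473 and 0.412 in the cKO, a difference that did not pass the test.

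The Quaking core ACTAAC (searched on the RNA strand) was not in exons 2 to 6 of *Qk* or in exon 3 of *Sf1*. It was in 56 of 4049 distinct tested cassette exons that could be matched to GENCODE (1.38%), and the longer TACTAAC, which contains it, was in 15 (0.370%). Introns were not analysed here.

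Genes that work with the STAR proteins were described from gene lists. Of 22 genes of branch point recognition, the partners of *Sf1*, 0 were called by edgeR and 0 by DESeq2, and 2 had an unadjusted p below 0.05. One of them was *Dhx15*, a helicase that takes spliceosomes apart, with a log2 difference of 0.18 (FDR 0.420). The median log2 change of the list was 0.02. Of 33 tested events in these genes, 3 were called by Fisher's exact test and 1 by edgeR, beside 7.50% and 0.557% of all tested events. Of 17 tested modifiers and partners of the Sam68 family, 0 were called by either tool and 1 had an unadjusted p below 0.05, *Rasa1* (a GTPase-activating protein for Ras), with a log2 difference of 0.21 (FDR 0.293). The median of that list was 0.04, 1 of 16 tested events was called by Fisher's exact test and 0 by edgeR, and *Rbmy1a1* was listed at 0 in every sample.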

How the data were processed

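Libraries came from poly(A) mRNA of E14.5 cortices, with 2 samples per genotype. The authors aligned paired-end reads to mm10 with OLego and counted tags with Quantas, and versions are not given in the sources used here. The deposited tables hold estimated counts of tags and RPKM per gene, and estimated counts of isoform and junction tags per splicing event of 6 types. Tags of ambiguous fragments were split by the authors, so 8.41% to 12.1% of genes had values that were not whole. These were rounded before tests. Depth was 37942046 to 42994832 tags assigned to genes.

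Every gene reaching 1 tag in some sample was fitted with edgeR 4.0.16 (R 4.3.3), by TMM scaling and the quasi-likelihood test. Calls needed p below 0.01 and Benjamini-Hochberg FDR below 0.1 over all genes. Events with a coverage of at least 20 junction tags were tested by a two-sided Fisher's exact test on isoform tags summed over replicates, which holds no replicate variation, with FDR within each event type. An edgeR test of the isoform by genotype interaction was the alternative, and DESeq2 1.42.0 that for genes. Genes that DESeq2 left without an FDR, as its default filter does at low counts, were counted as not called. Inclusion was taken from junction tags divided by the number of junctions per isoform. Fold changes are relative to TMM scaling, and the median over all genes was -0.0025 in log2. Scripts were tested on simulated data.

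All 5 members were named. Called events, tested events of *Qk*, and the 3 tested events of *Sf1* with the largest ΔI were described with values, and of each list the 2 genes with the smallest p, some of which are not reported here. The RNA list in the closing section was taken likewise, and its called events were chosen for naming after their values were seen. The members and lists were chosen with earlier results of these data known. Sequences and exon coordinates came from GENCODE M21. The pairing by replicate number was examined and is given with the alternatives.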

Additional observations from a re-analysis of the deposited data

How the results depend on the processing

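Of 175 alternative values for the transcripts, events and junctions above, 163 kept their direction and their side of the threshold. This share is not a measure of robustness, since part of the values could not change. The coverage, junction-tag, edgeR and block settings leave ΔI as it was, and averaging over replicates keeps the main call. The terminal acceptor of *Sf1* is counted under both of its listings, and junction ratios were judged by p alone. The count of STAR transcripts called stayed at 1 with upper-quartile scaling, the edgeR exact test, filterByExpr, DESeq2 and the replicate block, and ranged from 0 to 1 with 1 sample left out, the 0 being without control replicate 2. The count of STAR events called was 0 on junction tags alone and 1 under every other alternative run (1 to 1 with a sample left out); averaging inclusion over replicates does not enter this test. With 1 sample left out, the exon 2 junction stood at 5.90% to 6.92% of control and the Qki-6 and Qki-7 junctions together at 11.4% to 13.1%. The reference of the exon 2 junction gave 6.13% (exon 5-6) and 10.3% (library), and that of the Qki-6 and Qki-7 junctions 12.7% (exon 3-4) and 20.5% (library). Changes of sign occurred among values that were not called and with 1 sample left out: the log2 change ran from -0.066 to 0.038 for *Khdrbs1*, from -0.13 to 0.022 for *Khdrbs3* and from -0.019 to 0.00019 for *Sf1*, and ΔI of *Sf1* from -0.0021 to 0.023 for the exon 3 cassette, from -0.017 to 0.025 for the exon 10 acceptor and from -0.011 to 0.039 for the exon 11 acceptor; the cause was not tested. Over all genes 110 were called, against 100 with upper-quartile scaling, 57 by the exact test, 81 by DESeq2, 11 with filterByExpr and 192 with the replicate block, and the share called as higher moved from 39 of 110 to 26 of 100 with upper-quartile scaling. Without control replicate 1, control replicate 2, QkcKO replicate 1 and QkcKO replicate 2 there were 11, 0, 428 and 68. Over all events 862 were called, against 64 by the edgeR interaction test, and 482 of the 862 had a ΔI below 0.1 in size. Deviations from the group means correlated, between samples that share a replicate number, at 0.303 over 12928 genes but at -0.0816 over autosomal genes, with 2 pairs only, so the numbers were not taken as a pairing. With the replicate block *Qk* rose by log2 0.65 (FDR 2.03e-08), the exon 2 junction stood at 6.36% of control and the Qki-6 and Qki-7 junctions together at 12.2%, and 1 STAR transcript and 1 STAR event were called. The Qki-7 junction rests on 5.96 to 27.0 tags per sample, which limits its precision.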

Other observations

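RNAs that STAR proteins are known to bind or splice were described from the lists, with splicing and level side by side. Of 10 RNAs of the Sam68 family, 0 were called in level by edgeR or DESeq2, with 3 at an unadjusted p below 0.05. *Tomm70a*, a mitochondrial import receptor, had a log2 difference of 0.19 (edgeR, FDR 0.261), and *Nrxn2*, a presynaptic adhesion molecule, had -0.14 (FDR 0.510). Of 17 tested events in these RNAs, 3 were called by Fisher's exact test and 3 by edgeR, beside 7.50% and 0.557% of all tested events. A cassette exon of *Nrxn2* had inclusion levels of 0.314 and 0.415 in the controls and 0.850 and 0.709 in the cKO (ΔI -0.41, FDR 5.92e-17, edgeR FDR 0.0618). The groups did not overlap, as for 37.9% of all tested events in either direction. That event of *Nrxn2* spans chr19:6454979-6472419, and whether STAR proteins act on its exon was not tested. The transcripts of *Khdrbs1*, *Khdrbs2* and *Khdrbs3* were not called, as given above, and their proteins were not measured.

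Of 11 RNAs of Quaking, 0 were called in level by either tool, with 1 at an unadjusted p below 0.05. This was *Mbp*, myelin basic protein, with a log2 difference of 0.28 (FDR 0.432), and *Hnrnpa1*, a splicing factor, had 0.11 (FDR 0.704). Of 28 tested events 4 were called by Fisher's exact test, in *Macf1*, *Numb* and *Hnrnpa1*, and 0 by edgeR, beside the same 7.50% and 0.557% of all events. A cassette exon of *Numb*, a regulator of Notch signalling, had inclusion levels of 0.324 and 0.400 in the controls and 0.631 and 0.658 in the cKO (ΔI -0.29, FDR 0.00582, edgeR FDR 0.351). The groups were apart, as for 37.9% of all tested events in either direction, at a coverage of 67.0 tags. One of *Hnrnpa1* had a ΔI of -0.03 (FDR 0.0316), and of *Macf1* -0.0057 (FDR 0.0939).

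Of 29 other proteins with KH domains, 1 transcript was called, as lower, beside 0.377% of all tested genes called as lower. *Fubp3*, which encodes a far upstream element binding protein, had 27.1 and 26.3 RPKM in the controls and 22.0 and 21.3 RPKM in the cKO. By edgeR, *Fubp3* fell by log2 0.29 (SE 0.06, FDR 0.0486). *Nova1*, a neuronal splicing regulator, had a log2 difference of -0.24 (FDR 0.373). The median log2 change of the list was 0.0059. Of 87 tested events in these genes 26 were called by Fisher's exact test and 0 by edgeR, beside 7.50% and 0.557% of all events. Of the 26, 25 were among the 32 tested events of 1 gene, *Hnrnpk*, and 1 was in *Fubp3*; *Hnrnpk* was named after its values were seen.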
